A study of Mus musculus with 14 samples.

Results

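The genes described here are 10 immediate early genes of the serum response, *Egr1*, *Egr2*, *Egr3*, *Egr4*, *Srf*, *Nr4a1*, *Ier2*, *Ier3*, *Dusp1* and *Zfp36*, among 21853 protein-coding genes of the mouse. They were listed by name, *Egr1* being a gene that the study followed. Peaks of H3K4me3, the trimethylated form of lysine 4 on histone H3, were assigned to a gene if they touched its body or came within 1 kb of one of its transcription start sites (TSSs) in GENCODE M21. This gave 24 of the 25431 peaks. Of 32965 putative enhancers, 57 lay within 100 kb of the start of the longest protein-coding transcript of a gene of this set. Positions are in the mouse build mm10 (GRCm38.p6) and count from 1.

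H3K4me3 was mapped by chromatin immunoprecipitation and sequencing (ChIP-seq) in iMEF, immortalised mouse embryo fibroblasts, to follow the mark after acute loss of ASH2L, a core subunit of the H3K4 methyltransferase complexes. There were 12 H3K4me3 libraries, with 2 replicates each of untreated cells and of cells exposed to the degrader dTAG for 30 min, 2 h, 4 h, 8 h and 16 h, and 2 inputs, 1 without dTAG and 1 at 16 h. All cells, untreated ones included, carried a lentiviral construct for human ASH2L with an N-terminal FKBP12F36V tag. Per the study's methods the floxed mouse *Ash2l* alleles of these cells had been recombined, and the histone ChIP-seq was done in NG3 cells, which are a single clone. The peak list is the union of the sites found across the samples and the enhancers were defined in control cells, so both lists hold positions with no value per sample. Library depth is unknown here, since the methods give only a planned minimum of raw reads. Values below carry no replicate error, and the time points were not compared. A gene without a listed peak is described only as that, and the fibroblast identity of the cells could not be checked from positions.

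When quiescent fibroblasts meet serum, MAP kinase signalling acts on ternary complex factors of the ETS family. These act together with serum response factor (SRF), which binds CArG boxes, and transcription of the early genes begins without new protein synthesis. Many early gene promoters also hold cyclic AMP response elements (CREs), which are bound by CREB and ATF proteins. Several products of the early genes are transcription factors that carry the response on, and others, among them phosphatases and RNA decay factors, bring it to an end. H3K4me3 is a mark of the nucleosomes around active start sites, and the start itself is often free of nucleosomes.

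The promoters show how the letters of the serum response lie against the peaks. RefSeq promoter sequences, from 250 bases before to 50 bases after the start, were found for 7 of the 10 genes. *Egr1*, *Egr3* and *Ier2* had none. 6 of these promoters are printed, because they hold the CArG boxes or CREs of the set or contain a stretch between peaks. Each is written 5′ to 3′ in the direction of transcription. Capitals mark matches to the letters searched on either strand. The letters were those of the CArG box, the site of SRF with any A or T in its core, and of the EGR sites GCGTGGGCG and GCGGGGGCG. Factors of the ETS family were searched by CCGGAA and the CRE by TGACGTCA or its first part TGACG. The site of AP-1 was read as TGAGTCA, the box of SP factors as GGGCGG (called GC box below) and the box bound by TBP as TATAAA.
Srf promoter, chr17:46556113-46556412, minus strand: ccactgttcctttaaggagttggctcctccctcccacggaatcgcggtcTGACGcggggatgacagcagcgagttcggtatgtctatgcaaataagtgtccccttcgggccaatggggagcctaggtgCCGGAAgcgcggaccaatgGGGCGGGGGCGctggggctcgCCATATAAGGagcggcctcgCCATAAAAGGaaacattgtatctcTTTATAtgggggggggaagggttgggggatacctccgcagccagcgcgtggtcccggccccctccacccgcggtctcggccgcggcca
Dusp1 promoter, chr17:26508423-26508722, minus strand: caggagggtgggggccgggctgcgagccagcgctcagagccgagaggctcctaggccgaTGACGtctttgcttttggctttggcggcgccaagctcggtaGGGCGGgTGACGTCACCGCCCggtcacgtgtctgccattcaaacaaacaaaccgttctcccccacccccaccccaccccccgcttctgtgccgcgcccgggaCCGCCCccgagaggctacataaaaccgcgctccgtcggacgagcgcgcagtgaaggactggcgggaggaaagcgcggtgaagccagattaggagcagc
Nr4a1 promoter, chr15:101266596-101266895, plus strand: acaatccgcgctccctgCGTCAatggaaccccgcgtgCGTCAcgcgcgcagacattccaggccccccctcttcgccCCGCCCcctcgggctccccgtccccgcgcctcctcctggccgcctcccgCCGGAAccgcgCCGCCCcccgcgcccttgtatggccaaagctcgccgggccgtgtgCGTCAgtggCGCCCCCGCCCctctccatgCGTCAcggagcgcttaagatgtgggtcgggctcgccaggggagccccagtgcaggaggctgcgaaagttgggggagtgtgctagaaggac
Ier3 promoter, chr17:35821463-35821762, plus strand: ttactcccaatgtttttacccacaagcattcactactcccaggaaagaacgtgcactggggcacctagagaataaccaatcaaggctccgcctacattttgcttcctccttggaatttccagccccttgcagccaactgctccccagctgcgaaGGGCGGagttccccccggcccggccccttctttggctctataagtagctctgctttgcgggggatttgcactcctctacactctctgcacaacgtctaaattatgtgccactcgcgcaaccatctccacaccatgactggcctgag
Zfp36 promoter, chr7:28379179-28379478, minus strand: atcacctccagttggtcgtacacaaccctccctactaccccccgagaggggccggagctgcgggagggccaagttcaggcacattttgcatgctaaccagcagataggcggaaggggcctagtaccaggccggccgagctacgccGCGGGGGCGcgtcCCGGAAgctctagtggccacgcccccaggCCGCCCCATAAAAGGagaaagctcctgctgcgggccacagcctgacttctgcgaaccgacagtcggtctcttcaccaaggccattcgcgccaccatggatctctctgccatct
Egr2 promoter, chr10:67537619-67537918, plus strand: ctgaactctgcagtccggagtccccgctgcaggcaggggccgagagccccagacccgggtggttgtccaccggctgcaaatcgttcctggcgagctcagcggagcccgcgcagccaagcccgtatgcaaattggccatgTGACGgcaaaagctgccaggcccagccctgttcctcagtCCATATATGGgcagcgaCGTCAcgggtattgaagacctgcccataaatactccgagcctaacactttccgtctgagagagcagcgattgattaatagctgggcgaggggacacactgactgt

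CArG boxes, the sites of SRF, were found in 3 of the 7 promoters, those of *Srf*, *Zfp36* and *Egr2*, against 1.53% of all 16515 protein-coding promoters of the same length. The *Srf* promoter held CCATATAAGG at -82 to -73 and CCATAAAAGG at -62 to -53 from the RefSeq start. The first of these lay wholly in a stretch of 213 bp without a peak, and the other crossed the edge of the peak that began there. The same stretch held an ETS match at -122 to -117 and an EGR match at -101 to -93, which overlapped a GC box. The *Zfp36* promoter held CCATAAAAGG at -58 to -49, an ETS match at -92 to -87 and an EGR match at -105 to -97, and all of these lay under a peak. The *Egr2* promoter held CCATATATGG at -72 to -63, and no peak was listed there.

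The full CRE was found in *Dusp1* only, at -143 to -136, against 2.36% of all promoters. It lay between GC boxes at -150 to -145 and -135 to -130, and all of these fell in a stretch of 127 bp between peaks. The shorter letters TGACG, which the full CRE contains, were present in 5 of 7 promoters, against 24.3% of all promoters. In *Nr4a1* these letters occurred 4 times, at -233, -213, -69 and -40, all under peaks. *Egr4*, which is not printed, held them at -177 and -109, under its only peak. GCGGGGGCG was present in 3 promoters (*Srf*, *Nr4a1* and *Zfp36*) against 4.03% of all, and GCGTGGGCG in 0 against 0.86%.

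The remaining letters were widespread or rare in the set. CCGGAA was found in 3 of 7 promoters against 19.7% of all, the GC box in 5 against 48.0%, TATAAA in 1 against 12.9%, and TGAGTCA in 0 against 4.57%. The only match in *Ier3* was a GC box at -96 to -91, in the stretch between its peaks. Of the 30 matches in the 6 promoters whose gene had a peak, 14 lay wholly outside peaks. In these promoters 33.8% of bases lay outside peaks, and in the 9562 promoters with a peak within 1 kb of the start 30.8% did. Of the 3 CArG boxes in marked promoters of the set, 1 lay wholly outside peaks, and 42.7% of such boxes did over all marked promoters. For the GC box these values were 6 of 9 and 29.9%, for CCGGAA 2 of 3 and 23.2%, and for TGACG 3 of 10 and 30.7%. For GCGGGGGCG they were 1 of 3 and 25.6%, for TGACGTCA 1 of 1 and 36.5%, and for TATAAA 0 of 1 and 42.9%. Overlapping letters were counted as separate matches, so the *Dusp1* CRE also counted as TGACG on both strands. The GC content of the 7 promoters ran from 54.0% in *Ier3* to 72.3% in *Nr4a1* with a median of 63.7%, and the median of all promoters was 57.0%. The ratio of observed to expected CpGs ran from 0.494 in *Ier3* to 0.921 in *Dusp1* with a median of 0.837, and that of all promoters was 0.595. These matches describe letters and do not show that a factor was bound.

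**Figure D1:**
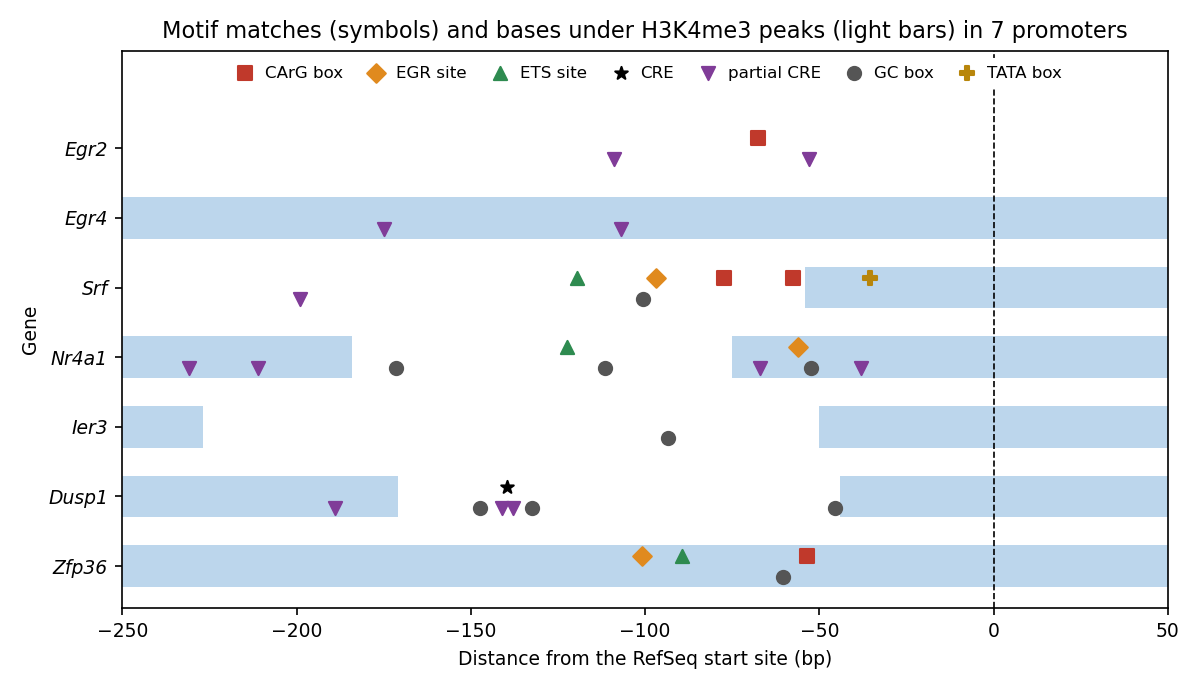
Motif matches (symbols) and bases under H3K4me3 peaks (light bars) in the promoters of 7 genes, by distance from the RefSeq start site in bp. Srf, Nr4a1, Ier3 and Dusp1 show a stretch without a peak upstream of the start, Egr4 and Zfp36 lie wholly under a peak, and Egr2 has none.

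A peak within 1 kb of a TSS was listed for 9 of the 10 genes, against 59.1% of protein-coding genes. *Egr2* was the exception, with no peak in the list used here. At least 2 assigned peaks were found for 7 genes, against 30.3% of protein-coding genes, and a peak of at least 2 kb for 6 genes, against 9.85%. Among the 12911 marked genes these shares were 50.2% and 16.3%. The 7 genes with several peaks became 4 with peaks of at least 500 bp only and 3 with peaks merged across 500 bp or less, against 14.5% and 11.0% of protein-coding genes. The width of 2 kb was chosen after the widths had been seen. With genes without a peak at 0, *Egr2* included, the median number of bases under assigned peaks was 3405 per gene in the set and 938 over all protein-coding genes. The median widest peak was 2365 bp and 785 bp. For genes with a peak only, these medians were 3606 and 1593 bases, and 2506 bp and 1263 bp. The genes of the set are short, with a median length of 5162 bp for the 9 with a peak, against 25800 bp for all 12911 genes with a peak. Of the 6527 protein-coding genes of at most 8 kb, 6.19% had a peak of at least 2 kb, and of the 2380 of these with a peak at a start 16.7% did. Ordered by bases under peaks, the set ran from *Dusp1* with 4767 through *Egr1* with 4213, *Zfp36* with 4168, *Ier2* with 3694, *Srf* with 3606, *Nr4a1* with 3204, *Egr3* with 2224, *Ier3* with 1704 and *Egr4* with 606 to *Egr2* with 0. The *Dusp1* value includes a pair of distal peaks shared with *Ergic1*, and without them it was 2836, below *Nr4a1*. Without values per sample it could not be said which neighbours in this order differ.

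To place the peaks, each gene was given a reference start, the GENCODE protein-coding start nearest to the RefSeq start. In *Srf*, *Ier3* and *Zfp36* it differs from the RefSeq start, from which the motif positions were counted. Distances below, except those of enhancers, are from the reference start, in the direction of transcription, with negative values upstream. In 5 genes, *Srf*, *Nr4a1*, *Ier2*, *Ier3* and *Dusp1*, the widest peak began at most 75 bp upstream of the start and ran into the gene body, and a narrower separate peak lay upstream.

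**Figure D2:**
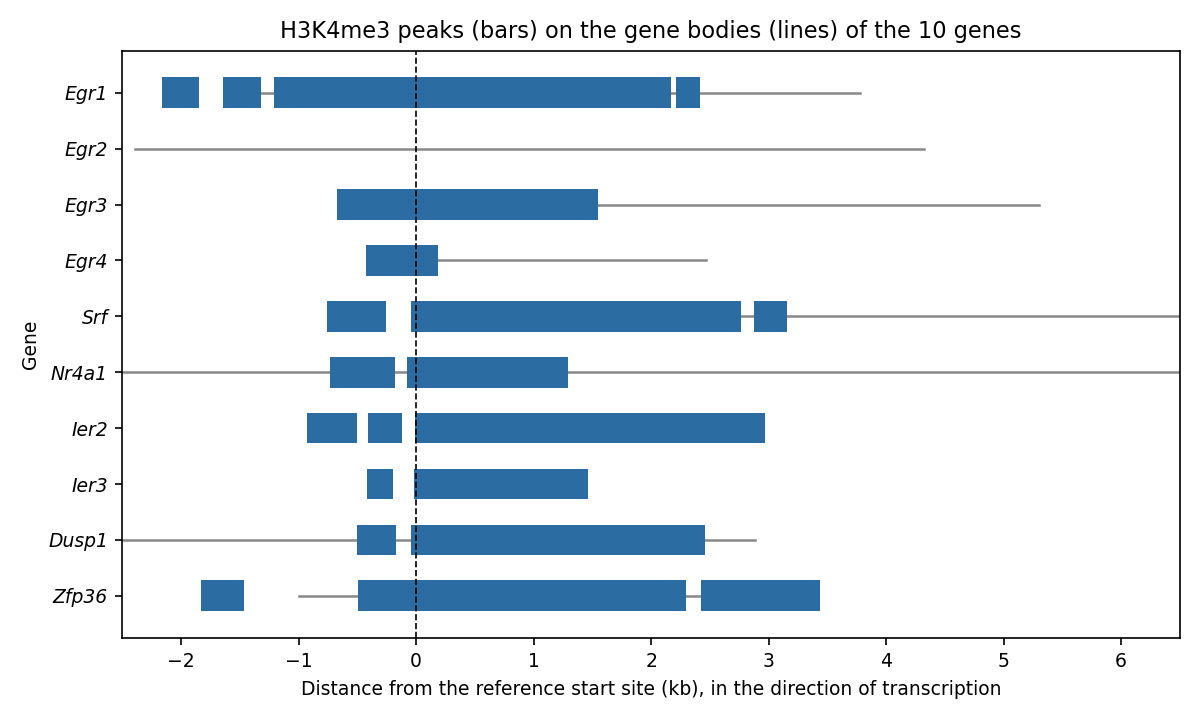
H3K4me3 peaks (bars) and gene bodies (lines) of the 10 genes, by distance from the reference start in kb. Wide peaks reach 1291 to 2968 bp past the start in 8 of the 10 genes, Egr4 has a short peak over the start, and Egr2 has none. The distal Dusp1 peaks and the first Nr4a1 peak lie beyond the left edge.

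Among the EGR zinc finger transcription factors, *Egr1* (chr18:34859823-34864984, plus strand) had 4 peaks. The widest, with 3380 bp the widest of the set, ran from -1214 to 2165 and so covered the reference start. Of its bases 35.7% were coding, 44.3% lay in untranslated or noncoding exon and 20.1% in intron. Upstream lay a pair of peaks of 316 bp each, at -2162 to -1847 and -1641 to -1326, the second of which covered another GENCODE start of *Egr1* at position 34859823. A peak of 201 bp at 2216 to 2416 lay wholly in coding sequence, 50 bp after the wide peak. In all, 70.5% of the *Egr1* gene body lay under peaks, and 96.6% of marked protein-coding genes had fewer bases under their peaks.

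The other EGR genes had simpler layouts. *Egr3* (chr14:70077203-70082614, plus strand) had a single unbroken peak of 2224 bp from -675 to 1548, which covered 30.7% of the gene body. *Egr4* (chr6:85511121-85513589, minus strand) had a single peak of 606 bp from -424 to 181, and 5.89% of marked protein-coding genes had fewer bases under their peaks. *Egr2* (chr10:67535475-67542188, plus strand) had no listed peak, and the nearest in the list was 351 kb from its reference start. Whether the list is complete around this gene is not known, so its 0 is a count of listed peaks and not a measured absence of the mark. The nearest protein-coding start, that of *Ado* at 11.1 kb, thus had none within 1 kb either. Bases under listed peaks thus ran from 0 to 4213 within the EGR family.

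*Srf* (chr17:46548329-46556175, minus strand) encodes the factor that binds the CArG boxes of this gene class. It had a peak of 508 bp at -762 to -255, a wide one of 2810 bp from -41 to 2768, and one of 288 bp at 2872 to 3159 wholly in intron. The stretch without a peak between the first and the wide peak, 213 bp from -254 to -42, is the one that held the first CArG box, the ETS letters and the EGR letters described above. Its limits count from the reference start at position 46556175, and the motif positions above from the RefSeq start at 46556162. Of the wide peak 58.9% was intron and 27.3% coding.

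*Nr4a1* (chr15:101254269-101274795, plus strand) encodes the orphan nuclear receptor NUR77 and has 3 GENCODE starts. At the reference start a peak of 548 bp at -732 to -185 and one of 1367 bp at -75 to 1291 were separated by 109 bp. A further peak of 1289 bp lay over the upstream start, at -13148 to -11860, and overlapped a listed enhancer. Each of the peaks of *Nr4a1* thus lay at a start, and 12.8% of the 20527 bp gene body was under peaks.

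The short genes *Ier2* (chr8:84661331-84662852, minus strand), which encodes a nuclear protein of the early response, and *Ier3* (chr17:35821684-35822923, plus strand), which encodes a regulator of cell survival, lay wholly under peaks. *Ier2* is 1522 bp long and had a peak of 2975 bp from -6 to 2968, which went on for 1447 bp past the end of the gene. Upstream it had peaks of 425 bp at -926 to -502 and of 294 bp at -414 to -121. *Ier3* is 1240 bp long and had a peak of 1482 bp from -21 to 1460, which passed the gene end by 221 bp, and one of 222 bp at -420 to -199. The wide *Ier3* peak came within 1 kb of a start of *Flot1*, whose nearest protein-coding start lay 1.55 kb from that of *Ier3*.

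The feedback regulators also had a wide peak over the start and a narrow one upstream. *Dusp1* (chr17:26505590-26562128, minus strand), a phosphatase that inactivates MAP kinases, had a peak of 330 bp at -501 to -172 and one of 2506 bp from -44 to 2461, of which 43.9% was coding and 46.8% noncoding exon or untranslated. The 127 bp between them, at -171 to -45, held the CRE and a GENCODE start 47 bp upstream of the reference start. The remaining *Dusp1* peaks, of 1408 bp and 523 bp, lay at starts over 50 kb upstream and also within 1 kb of a start of *Ergic1*, so they cannot be given to *Dusp1* alone. *Zfp36* (chr7:28376784-28380253, minus strand), which encodes tristetraprolin, a protein that promotes decay of AU-rich mRNAs, had a peak of 2797 bp from -499 to 2297, one of 1009 bp at 2427 to 3435 that passed the gene end by 964 bp, and one of 362 bp at -1828 to -1467. Peaks covered 81.9% of the *Zfp36* gene body.

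Short stretches without a peak next to a start recurred in the set. A stretch of at most 1 kb between assigned peaks came within 100 bp of the reference start in 5 of the 10 genes, *Srf*, *Nr4a1*, *Ier2*, *Ier3* and *Dusp1*, against 13.0% of protein-coding genes. In all of these it lay upstream of the start, and its length was 213, 109, 114, 177 and 127 bp. Counting any GENCODE start, 7 genes had such a stretch within 100 bp, against 15.5% of protein-coding genes, the added genes being *Egr1* and *Zfp36*. It held a start itself in *Dusp1* and *Zfp36*, 2 of 10, against 7.00% of protein-coding genes. The limits of 100 bp and 1 kb were chosen after the layouts had been seen. Genes without a peak cannot have such a stretch. Of the 12911 marked genes, 26.3% had one within 100 bp of a GENCODE start. For 2845 of them it came within 100 bp of the reference start, and for 1529 it held a start. A stretch between narrow peaks is where the caller found no enrichment that passed its threshold, and no depth is known for it.

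By position, 9 of the 10 genes were under a peak at 400 bp upstream of the reference start, 4 at 100 bp upstream, and 9 at the start itself. The corresponding shares of the 12911 marked protein-coding genes were 52.5%, 56.1% and 77.9%, with 62.2% at 250 bp upstream. Downstream, 8 of 10 were under a peak at 1000 bp and 6 of 10 at 2000 bp, where the shares of marked genes were 47.2% and 9.57%. Both the set and the marked genes thus had a dip just upstream of the start, and the set was at 6 of 10 at a distance where few marked genes were under a peak. The most similar layouts to that of *Egr1*, by the Jaccard index of bases under peaks from 3 kb before to 6 kb after the reference start, over 12819 genes, were those of *Ubl5* (0.891), *Maf* (0.876), *Nfatc4* (0.855), *Foxo3* (0.854) and *Patz1* (0.841). Each of these genes had 1 peak where *Egr1* had 4, so the index compares covered bases and not the breaks between peaks. Within the set *Ier2* came first at rank 645 with 0.624 and *Egr4* last at rank 11485 with 0.144, apart from *Egr2*, which had no index.

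**Figure D3:**
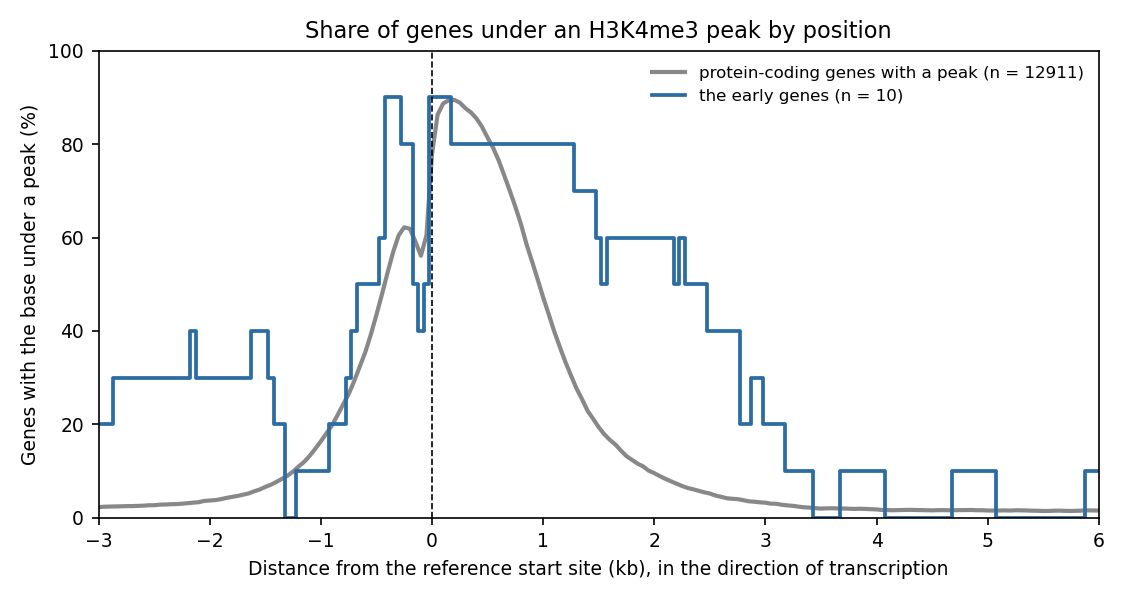
Percentage of genes with the base under an H3K4me3 peak, by distance from the reference start in kb, for the 10 early genes (blue) and the 12911 protein-coding genes with a peak (grey). The early genes fall to 4 of 10 at 100 bp upstream and remain at 6 of 10 at 2 kb downstream, where 9.57% of marked genes are under a peak.

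At least 1 putative enhancer lay within 100 kb of 9 of the 10 genes, and *Egr2* again had none. The same held for 72.1% of protein-coding genes, and for 11090 of the 12911 genes with a peak. These regions were defined by the authors from H3K4me1, H3K27ac and accessible chromatin away from start sites. The median was 6.5 enhancers per gene, against 3 over the 12911 genes with a peak and 2 over all protein-coding genes. Within 50 kb it was 3 against 1 over all protein-coding genes, and without enhancers closer to another gene it was 1.5 against 0. *Ier2* had the most with 10, and 95.7% of protein-coding genes had fewer. *Ier3* and *Nr4a1* had 8 each, *Egr1* and *Srf* 7 each, *Egr3* 6, *Dusp1* 5, *Zfp36* 4 and *Egr4* 2. Of the 57, 16 had their nearest protein-coding start in the set, and the rest were closer to another gene. The 16 were 4 at *Ier2*, 3 each at *Egr3*, *Nr4a1* and *Dusp1*, 2 at *Ier3* and 1 at *Srf*. Over all protein-coding genes the mean was 2.94 enhancers per gene, and 1.03 without those closer to another gene.

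The nearest enhancers differed widely in distance. Distances were taken from the start of the longest protein-coding transcript, which in *Egr1*, *Nr4a1*, *Dusp1* and *Zfp36* is not the reference start. The *Nr4a1* region chr15:101253655-101254877 lay at the start of the longest transcript itself and overlapped the distal peak. It covers a GENCODE start although the list leaves out regions near start sites, and the authors' set of start sites can differ from the one used here. The nearest region of *Egr3* began 1.29 kb from the start, that of *Ier2* 1.93 kb, that of *Zfp36* 4.69 kb and that of *Ier3* 7.82 kb. For *Egr1* the nearest lay 37.3 kb away, and none of its 7 had *Egr1* as the nearest protein-coding gene. They were nearest to *Kdm3b*, *Etf1* and *Hspa9*. For *Egr2* the nearest listed enhancer was 189 kb away. Of the 57 enhancers, 10 overlapped a listed H3K4me3 peak. The share of all enhancers that did was not computed, so this count is not a comparison.

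**Figure D4:**
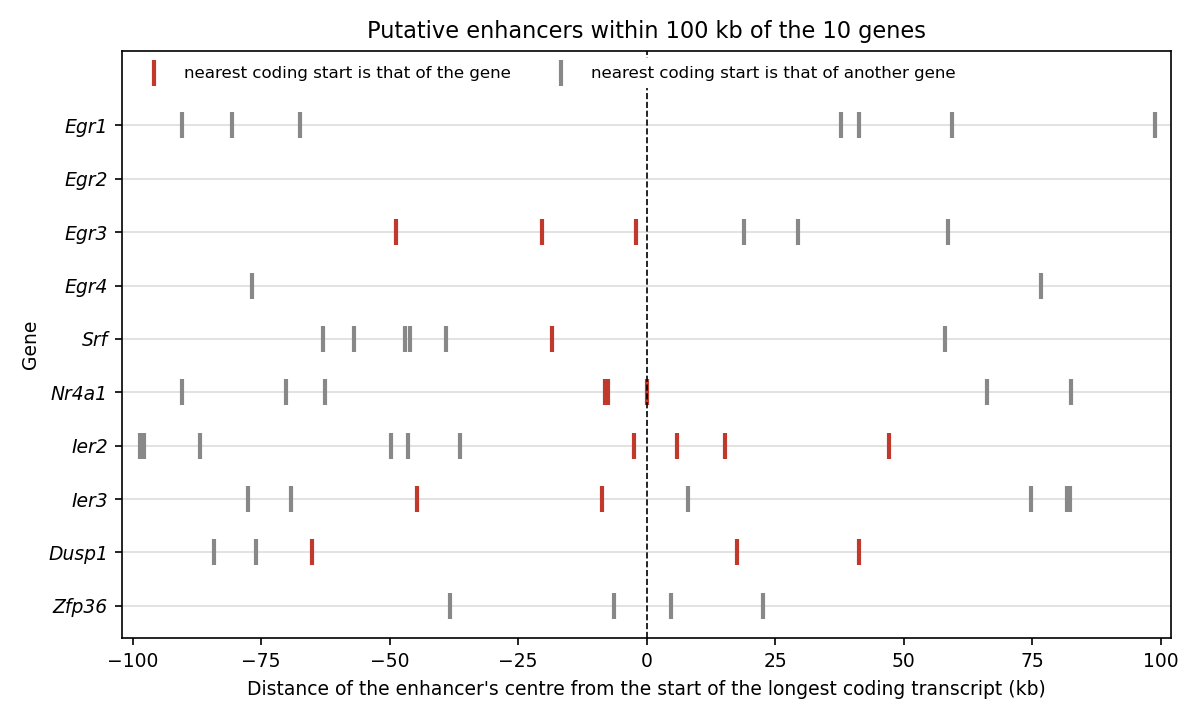
Centres of the putative enhancers within 100 kb of the 10 genes, by distance in kb from the start of the longest protein-coding transcript. Red ticks have their nearest protein-coding start in the gene itself (16 of 57) and grey ticks in another gene. Egr1, Egr4 and Zfp36 have no red tick and Egr2 has no enhancer.

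The same letters were counted in the enhancers, leaving out those of *Egr1*. TGACG occurred in 22 of 50 enhancers (44.0%), against 17.7% of all enhancers, and CCGGAA in 11 (22.0%), against 7.64%. The AP-1 letters TGAGTCA occurred in 12 (24.0%), against 24.2%. A CArG box occurred in 2 (4.0%), against 3.23%. GGGCGG occurred in 16 (32.0%), against 11.4%, TATAAA in 12 (24.0%), against 19.5%, and TGACGTCA in 3 (6.0%), against 0.619%. The EGR letters occurred in 1 enhancer each (2.0%), against 0.504% for GCGGGGGCG and 0.182% for GCGTGGGCG. Lengths differ between these sets, and per kb the counts were 0.77 and 0.425 for TGACG, 0.397 and 0.172 for CCGGAA, 0.35 and 0.569 for TGAGTCA, and 0.0467 and 0.0643 for the CArG box. They were 0.84 and 0.363 for GGGCGG, 0.0933 and 0.0123 for TGACGTCA, 0.0233 and 0.0112 for GCGGGGGCG, and 0.0467 and 0.004 for GCGTGGGCG. For TATAAA they were 0.35 and 0.475, so per kb these letters were less dense near the set. In the 16 peaks of the 6 genes with both a promoter sequence and a peak, CArG boxes occurred 2 times over 18.1 kb, or 0.111 per kb, against 0.0392 per kb in all peaks. GCGGGGGCG was at 0.222 per kb against 0.103, CCGGAA at 0.609 against 0.541 and TGACG at 0.942 against 0.77. GGGCGG was less dense, at 1.55 per kb against 2.25, as was TATAAA, at 0.222 against 0.255. The other letters had 0 matches in these peaks, where all peaks held 0.122 per kb of TGAGTCA, 0.0264 of TGACGTCA and 0.0229 of GCGTGGGCG. In the 6 stretches without a peak near a start of these genes, the CArG box of *Srf* was the only one. Over all protein-coding genes, 31 of 3088 such stretches (1.0%) held one. The CRE of *Dusp1* was the only full CRE, against 3.11%. The stretches covered 1.68 kb in the set and 587 kb in all. Per kb, the counts were 0.596 and 0.0562 for the CArG box and 0.596 and 0.163 for the full CRE. For GCGGGGGCG they were 0.596 and 0.295, for the ETS letters 1.19 and 1.14, and for the shorter CRE letters 2.38 and 1.91. The GC box was less dense in the set, with 4.17 against 7.17. The AP-1 letters, the box bound by TBP and the other EGR letters had 0 matches, against 0.123, 0.34 and 0.0562 in all.

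Other gene lists related to the response were counted in the same way. Of 7 AP-1 factors, the FOS and JUN family, 6 had a peak at a start, 5 at least 2 peaks and 4 a peak of at least 2 kb. A stretch near the reference start was found in 3, and the median was 3233 bases under peaks. *Jund* had no listed peak, *Fosl2* the most bases with 4762 and *Fosl1* the fewest of the marked ones with 2451. Of 39 other early response genes, 38 had a peak at a start, 33 at least 2 peaks, 22 a peak of at least 2 kb and 21 a stretch near the reference start, with a median of 3161 bases. *Npas4*, a neuronal early factor, had no listed peak, while *Sgk1* had 6292 bases under peaks and *Arc* 788. The median of the 10 genes, 3405 bases, was thus close to those of both lists.

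Of 9 SRF partners and EGR corepressors, 8 had a peak at a start and 6 at least 2 peaks, with a median of 2257 bases, 3 peaks of at least 2 kb and 1 stretch near the reference start. *Myocd*, a cofactor of SRF in muscle, had no listed peak. The EGR corepressor gene *Nab2* had the most bases with 5591 and *Elk1*, a ternary complex factor, the fewest with 785. Of 14 cytoskeletal SRF targets, 13 had a peak at a start, 13 at least 2 peaks and 8 a peak of at least 2 kb. A stretch near the reference start was found in 8, and the median was 3538 bases. *Actg2*, the enteric smooth muscle actin, had no listed peak, *Tpm1* had 6893 bases and *Cnn1* 1706. At least 1 enhancer lay within 100 kb of 7 of 7, 38 of 39, 8 of 9 and 14 of 14 genes of these lists. In the same order, the median number per gene was 9, 6, 7 and 6, and the 6.5 of the 10 genes lay within this range.

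**Figure D5:**
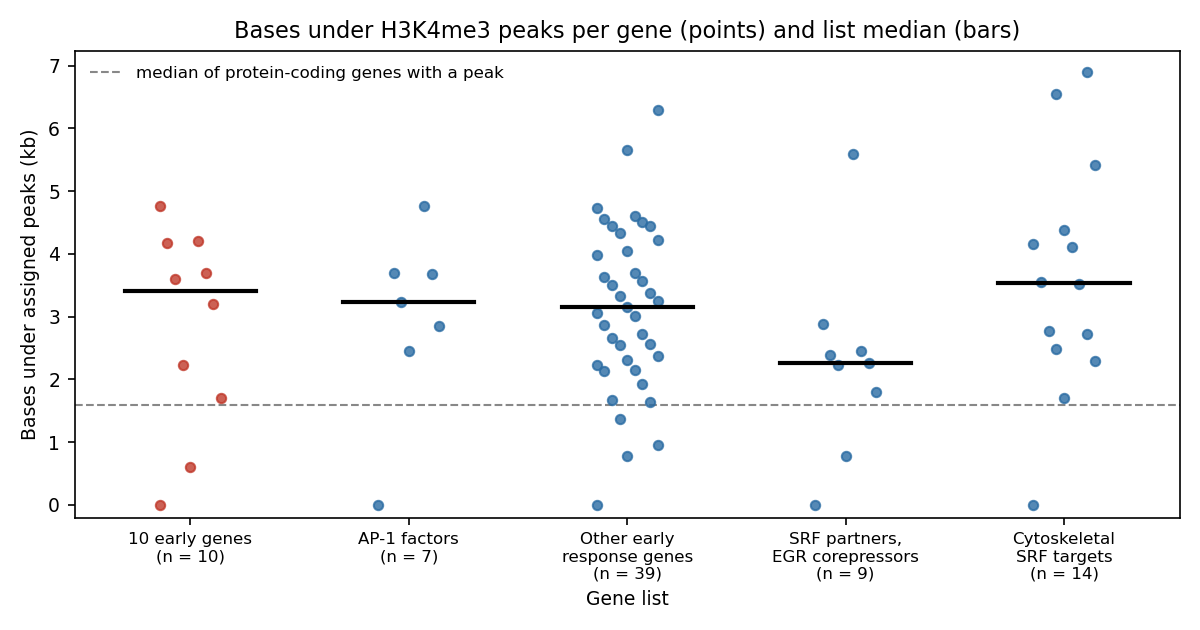
Bases under assigned H3K4me3 peaks per gene in kb (points) for the 10 early genes (red) and the other lists (blue), with the list median (bar) and the median of protein-coding genes with a peak (dashed line, 1593 bases). The medians of the early genes, AP-1 factors, other early response genes and cytoskeletal SRF targets lie between 3161 and 3538 bases, and that of the SRF partners and EGR corepressors is 2257.

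The neighbouring protein-coding starts nearest to the reference starts were those of *Plekhg2* at 6.66 kb from *Zfp36*, *Cul9* at 9.79 kb from *Srf*, *Fbxo41* at 10.6 kb from *Egr4*, *Atg101* at 17.4 kb from *Nr4a1*, *Reep2* at 20.6 kb from *Egr1*, *Bin3* at 22.8 kb from *Egr3*, *Trmt1* at 23.5 kb from *Ier2* and *Ergic1* at 53.0 kb from *Dusp1*. Apart from the distal *Dusp1* peaks and the wide *Ier3* peak, no assigned peak came within 1 kb of a start of another protein-coding gene.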

How the data were processed

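H3K4me3 ChIP-seq libraries of iMEF cells were processed by the authors. Per the study's methods, reads were aligned with BWA to mm10, replicates were merged, and narrow peaks were called with MACS. The authors deposited 2 lists of positions, a union of peaks over all samples and enhancers found in control cells. Neither holds a score or a value per sample, and files with such values were not analysed here, so no test was run and no time course was computed. Narrow calls can break a broad domain into pieces, and merging samples hides which of them held a peak.

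Peak starts were read as counting from 0 and enhancer starts from 1. Regions on chromosomes 1 to 19, X and Y were assigned with Python 3.11.15, NumPy 2.4.6 and pysam 0.24.0. TSSs came from GENCODE M21, reference starts, gene names and promoter sequences from RefSeq (GRCm38.p6). Members and lists were chosen with earlier results of these data known. In each list the genes named are those without a peak and those with the most and fewest bases, beside the nearest genes and the layouts closest to *Egr1*. The functions were tested on 400 simulated cases each, and 0 differed from a direct count. Matplotlib 3.10.9 drew the plots.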

Additional observations from a re-analysis of the deposited data

How the results depend on the processing

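Of 54 values under alternatives for 10 results, 40 stayed within 1.5 times the reported one. With peaks of at least 500 bp only, 4 genes had split peaks in place of 7, 15 peaks were assigned in place of 24, and 0 genes had a stretch without a peak over a start in place of 2. With peaks merged across 500 bp or less, these were 3, 12 and 1. The count of genes with such a stretch was 7 within 100 bp and 7 within 200 bp of any start and 5 within 100 bp of the reference start, limits chosen after seeing the data. Within 50 kb there were 30 enhancers in place of 57 and a median of 3 per gene in place of 6.5, and without enhancers closer to another gene 16 and 1.5. From 1000 bases before to 500 after the start, 62 motif matches were found in place of 33. No paired analysis was possible because positions carry no replicate, and changes over time, the replicate block and leaving out replicates were not run for the same reason. Widths depend on the caller and on a depth that is unknown here.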
